A study of Bos taurus with 6 samples.

Results

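Integrins are the receptors by which cells hold on to the extracellular matrix, and laminins are among the matrix proteins they hold. The 36 genes described here encode 25 integrin subunits and 11 laminin chains, and they were found by gene name among the 32183 rows of the expression tables. These genes and the lists of partner genes below were chosen with earlier results of these data known. The 36 genes filled 38 rows, because LAMA4 was listed on 3 separate rows. Expression was measured by RNA-seq in rumen epithelial primary cells (REPC), which were grown from the rumen of 1 male Holstein calf, 2 weeks old and fed milk replacer only. The cells of 3 cultures received 5 mM butyrate for 24 h, and the other 3 were controls, for which the labels give no further treatment. Butyrate is a short-chain fatty acid made by rumen microbes that the epithelium burns as fuel and that also inhibits histone deacetylases. All cultures go back to the same animal, so the p-values measure the spread between cultures and not between animals.

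An integrin is a pair of 1 alpha and 1 beta chain, and the pair decides which ligand is bound. A laminin is a trimer of an alpha, a beta and a gamma chain that assembles into the sheet under an epithelium, the basement membrane. In stratified epithelia such as that of the rumen, basal cells are anchored to this sheet through hemidesmosomes, in which the integrin pair of ITGA6 and ITGB4 binds a laminin that contains the LAMA3 and LAMB3 chains.

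Values are FPKM, fragments per kilobase of transcript scaled to the mapped fragments of the library, so levels can be compared between genes of different length. Fold changes are on the scale of log2(FPKM + 0.1), on which the change of a low gene comes out too small. In what follows, a gene rose or fell if its Benjamini-Hochberg adjusted p from limma over all 15813 rows tested was under 0.05. It was a differentially expressed gene (DEG) if its Bonferroni-adjusted p was under 0.05 and its log2 fold change was beyond 2. The median log2 fold change of all rows tested was 0.10, with quartiles of -0.41 and 0.77. Rescaling FPKM to TPM, in which every library has the same sum, moved that median by 0.12, and quantile normalization moved it by -0.15.

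The cultures expressed the genes of an epithelium. All 12 epithelial markers examined were high enough to be tested, with KRT17 at 3858 ± 86.99 (SD, n = 3) and KRT5 at 401 ± 30.7 (SD, n = 3) in control, although EPCAM was low at 0.54 ± 0.174 (SD, n = 3). The 12 markers summed to an FPKM of 6374 to 6646 in the controls and of 9108 to 9408 in the butyrate cultures. The largest gains in mean FPKM were those of KRT19, from 492 to 1953, KRT8, from 1380 to 1971, and KRT14, from 72.5 to 500. Of the 12 markers, 7 rose and 1 fell (58.3% and 8.33%, against 32.5% and 25.9% of all rows tested). KRT5 was the marker that fell, and KRT17, CDH1, DSP and PERP did not pass. Genes of other cell types were present too. The 9 fibroblast markers, mostly COL1A1, COL1A2 and COL3A1, summed to 1924 to 1982 in the controls and 2790 to 3038 in the butyrate cultures, with FAP and PDGFRB below a mean of 0.1. The 4 smooth muscle markers summed to 3437 to 3626 and 1033 to 1391. Among these 4 markers CNN1, ACTA2 and MYH11 fell and DES rose, from 0.367 ± 0.294 (SD, n = 3) to 1.599 ± 0.388 (SD, n = 3). The 5 leukocyte markers summed to 8.08 to 9.84 in the controls and 7.304 to 10.01 in the butyrate cultures. Of these, CD14 had means of 5.57 ± 1.105 (SD, n = 3) and 6.803 ± 1.19 (SD, n = 3) and did not pass, LCP1 fell from 3.15 ± 0.508 (SD, n = 3) to 1.73 ± 0.494 (SD, n = 3) (log2 fold change -0.85 ± 0.23 (SE), limma, adjusted p = 0.012), CD3E and CSF1R were above 0 in 1 culture each, and PTPRC was listed at 0 in all 6. The 4 endothelial markers summed to 1.95 to 2.07 in the controls and 6.48 to 8.43 in the butyrate cultures. PECAM1 rose from 1.54 ± 0.199 (SD, n = 3) to 3.95 ± 0.922 (SD, n = 3) and VWF from 0.456 ± 0.173 (SD, n = 3) to 3.31 ± 0.307 (SD, n = 3), while KDR was near 0 and CDH5 at 0 in all 6. The part of these shifts in the results below was not tested, and in a bulk sample fewer cells of a type and less RNA per cell cannot be told apart.

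After butyrate, the integrin and laminin genes moved in both directions. Of the 38 rows, 30 reached the limit for testing, a mean FPKM of 0.1 over the 6 cultures. Of these, 11 rows rose, which is 36.7% against 32.5% of all rows tested, and 10 rows fell, which is 33.3% against 25.9%. The 10 rows that fell belong to 8 genes, since all 3 rows of LAMA4 are among them. The counts depended on the scaling, with 14 rows that rose and 3 that fell in TPM, and 12 and 6 after quantile normalization. Of all 15813 rows tested, 5918 rose and 3387 fell in TPM, and 4284 and 4679 after quantile normalization. The share of integrin and laminin rows that fell was thus above that of all rows in FPKM and below it in both other scalings. The median log2 fold change of the 30 rows was 0.10, that of all rows tested also 0.10. ITGA7 was the only DEG among them, an upregulated one, where 2.46% of all rows were upregulated and 1.51% downregulated DEGs. ITGAV and LAMB3 also passed the Bonferroni threshold, with smaller fold changes.

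**Figure D1:**
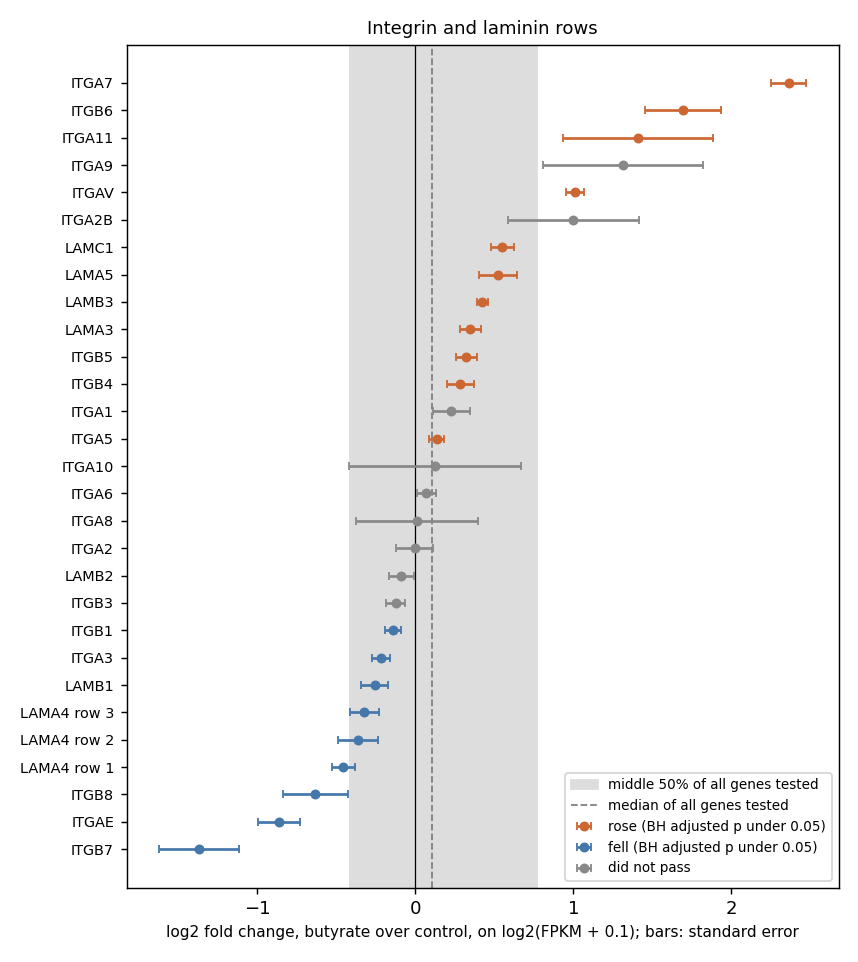
Log2 fold change of 29 of the 30 integrin and laminin rows tested, butyrate over control, with its standard error from limma (n = 3 cultures per group). ITGA7 lies farthest to the right at 2.36 and ITGB7 farthest to the left at -1.37, and the grey band marks the middle 50% of all genes around the dashed median of 0.10.

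The receptors of laminin come first. ITGA7 pairs with ITGB1 and is best known as the laminin receptor of muscle. It lies on chromosome 5 from 57873911 to 57898670 in the UMD3.1 coordinates of the tables. Control replicates 1 to 3 had FPKM of 5.18, 5.57 and 6.701, against 28.1, 31.4 and 31.1 for butyrate replicates 1 to 3. The lowest butyrate culture was well above the highest control, and the means of 5.82 ± 0.792 (SD, n = 3) and 30.2 ± 1.83 (SD, n = 3) differed 5.19-fold (log2 fold change 2.36 ± 0.11 (SE), limma, Bonferroni-adjusted p = 0.00022).

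The other laminin-binding alpha chains were abundant in both groups. ITGA6, the alpha chain of the hemidesmosome, had the highest mean of the alpha class over the 6 cultures. The controls were at 166, 158 and 147 and the butyrate cultures at 171, 168 and 155. These ranges overlap, and the difference did not pass (log2 fold change 0.07 ± 0.06 (SE), limma, adjusted p = 0.34), although it passed in TPM at 0.19 and after quantile normalization at 0.21. ITGA3, which pairs with ITGB1 at the base of epithelial cells, had means of 97.8 ± 1.64 (SD, n = 3) and 84.2 ± 5.62 (SD, n = 3) and fell (log2 fold change -0.22 ± 0.06 (SE), limma, adjusted p = 0.011). That fall no longer passed in TPM (-0.09) or after quantile normalization (-0.08). The ratio of ITGA6 to ITGA3, which a scaling factor of the library cannot move, was 1.61 ± 0.07602 (SD, n = 3) in the controls and 1.97 ± 0.196 (SD, n = 3) with butyrate, without overlap (exact permutation test, two-sided, p = 0.1, which is the lowest value 3 cultures against 3 can give).

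ITGB4, whose long cytoplasmic tail ties the hemidesmosome to keratin, rose from 24.4 ± 1.33 (SD, n = 3) to 29.8 ± 2.81 (SD, n = 3) (log2 fold change 0.28 ± 0.09 (SE), limma, adjusted p = 0.02). Its call was lost without control replicate 3 or butyrate replicate 1 or 3, at log2 fold changes of 0.24, 0.26 and 0.23. The ratio of ITGA6 to ITGB4 was 6.44 ± 0.0863 (SD, n = 3) in the controls and 5.58 ± 0.741 (SD, n = 3) with butyrate (exact permutation test, two-sided, p = 0.1).

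ITGB1 is the common beta chain, the partner of most alpha chains named here. It had the highest control mean of the 36 genes, at rank 168 of all rows tested, and rank 141 with butyrate. The controls were at 714, 696 and 668 and the butyrate cultures at 613, 599 and 676. Butyrate replicate 3 lay within the control range. ITGB1 passed as a fall (log2 fold change -0.14 ± 0.05 (SE), limma, adjusted p = 0.045), but its log2 fold change was -0.02 in TPM and 0.16 after quantile normalization, so these data fix no direction for it. Leaving out control replicate 1 or 2, or butyrate replicate 1 or 2, also ended the call, at log2 fold changes from -0.14 to -0.11.

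Among the receptors of fibronectin and other ligands with an RGD motif, ITGAV had the lowest adjusted p. It is the alpha chain shared by the pairs with ITGB3, ITGB5, ITGB6 and ITGB8, and it lies on chromosome 2 from 9647699 to 9760244. The controls were at 111, 107 and 98.97 and the butyrate cultures at 226, 205 and 206, far apart relative to the spread within each group. The means of 105 ± 5.91 (SD, n = 3) and 212 ± 11.8 (SD, n = 3) differed 2.01-fold (log2 fold change 1.01 ± 0.06 (SE), limma, Bonferroni-adjusted p = 0.0013). ITGA5, the fibronectin receptor chain that pairs with ITGB1, rose from 111 ± 4.31 (SD, n = 3) to 122 ± 3.82 (SD, n = 3) (log2 fold change 0.14 ± 0.05 (SE), limma, adjusted p = 0.041). The call of ITGA5 was lost without control replicate 1 or 2 or butyrate replicate 1 or 3, at log2 fold changes from 0.10 to 0.14. The ratio of ITGAV to ITGA5 was 0.955 ± 0.0896 (SD, n = 3) in the controls and 1.75 ± 0.114 (SD, n = 3) with butyrate (exact permutation test, two-sided, p = 0.1).

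The beta partners of ITGAV did not share a direction. ITGB6, which with ITGAV can release TGF-beta from its latent form and is typical of epithelia under repair, was at 0.397, 0.401 and 0.376 in the controls and 1.39, 1.74 and 1.35 in the butyrate cultures. It remained a low transcript, with all butyrate cultures above all controls (log2 fold change 1.69 ± 0.24 (SE), limma, adjusted p = 0.00035). The end of the ITGB6 locus overlaps LOC107132253, at a mean FPKM of 0.106 in the controls and 0 with butyrate. Reads of that overlap cannot be assigned with certainty. ITGB5, a vitronectin receptor chain, rose from 87.6 ± 5.27 (SD, n = 3) to 109.6 ± 6.701 (SD, n = 3) (log2 fold change 0.32 ± 0.06 (SE), limma, adjusted p = 0.0025). ITGB8, which also activates TGF-beta, fell from 3.94 ± 0.935 (SD, n = 3) to 2.48 ± 0.342 (SD, n = 3) (log2 fold change -0.63 ± 0.21 (SE), limma, adjusted p = 0.027). Without control replicate 1 or 3 or butyrate replicate 2 or 3 the fall of ITGB8 did not pass, at log2 fold changes from -0.67 to -0.47, nor did it in TPM (-0.52). ITGB3 had means of 73.5 ± 2.14 (SD, n = 3) and 67.5 ± 4.09 (SD, n = 3) and did not pass (log2 fold change -0.12 ± 0.06 (SE), limma, adjusted p = 0.1). The ratio of ITGB5 to ITGB3 was 1.19 ± 0.0512 (SD, n = 3) in the controls and 1.62 ± 0.029 (SD, n = 3) with butyrate, without overlap. Both ITGA8 and ITGA2B, further alpha chains of this kind, were low. ITGA8 had means of 0.163 ± 0.0412 (SD, n = 3) and 0.165 ± 0.0445 (SD, n = 3) and did not pass (log2 fold change 0.01 ± 0.39 (SE), limma, adjusted p = 0.98), but after quantile normalization it passed as a fall (-1.06, adjusted p = 0.04). ITGA2B, the platelet chain, had means of 0.147 ± 0.0903 (SD, n = 3) and 0.369 ± 0.0424 (SD, n = 3) and did not pass either (log2 fold change 1.0 ± 0.41 (SE), limma, adjusted p = 0.066).

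**Figure D2:**
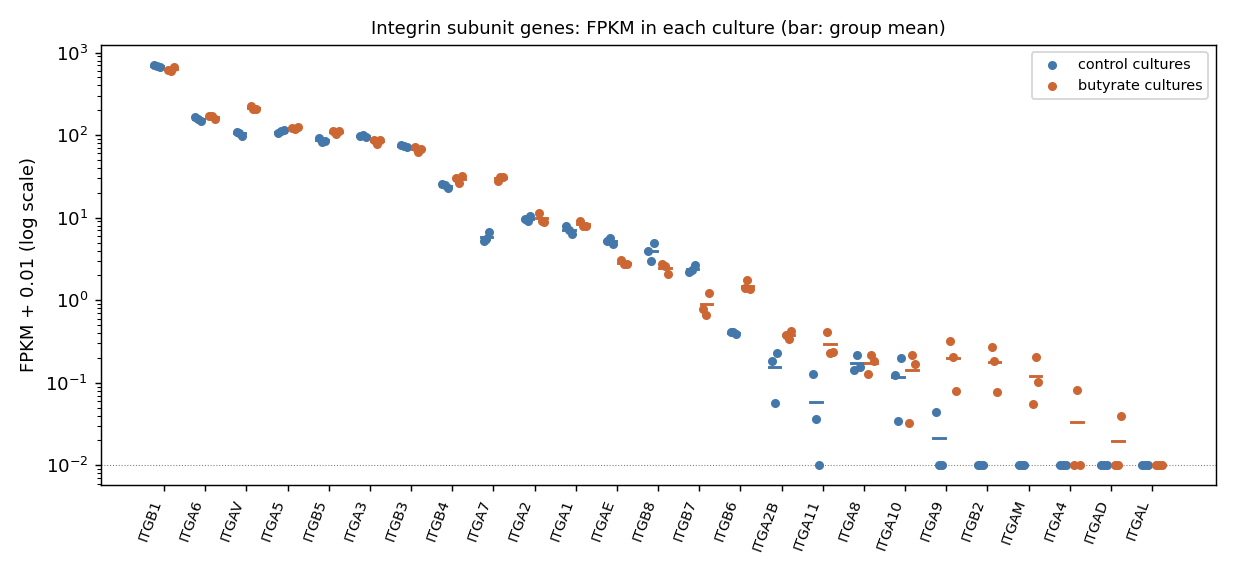
FPKM + 0.01 on a log scale of the 25 integrin genes in each of the 3 control and 3 butyrate cultures, with a bar at each group mean. Genes are ordered by their mean over all cultures, from ITGB1 to ITGAL, which was listed at 0 everywhere. Among others, ITGA7, ITGAV and ITGB6 show butyrate points above all control points, while ITGAE, ITGB7 and ITGB8 show them below. The FPKM of 65.0% of all rows tested did not overlap either.

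The collagen receptors are the pairs of ITGB1 with ITGA1, ITGA2, ITGA10 or ITGA11. ITGA2 had means of 9.77 ± 0.749 (SD, n = 3) and 9.78 ± 1.28 (SD, n = 3), with overlapping groups, and did not pass (log2 fold change -0.003 ± 0.12 (SE), limma, adjusted p = 0.98). ITGA1 had means of 7.101 ± 0.8099 (SD, n = 3) and 8.31 ± 0.596 (SD, n = 3) and did not pass (log2 fold change 0.23 ± 0.12 (SE), limma, adjusted p = 0.13), whereas it did in TPM at 0.35. The locus of ITGA1 contains PELO, at a mean FPKM of 48.99 in the controls and 47.5 with butyrate, and reads of the overlap cannot be assigned with certainty. ITGA11 was at 0.118, 0.026 and 0 in the controls and 0.403, 0.217 and 0.224 in the butyrate cultures. It passed as a rise (log2 fold change 1.41 ± 0.47 (SE), limma, adjusted p = 0.031), but it reached the limit of 0.1 only through its butyrate values, and its call was lost without control replicate 2 or 3 or butyrate replicate 1 and after quantile normalization (0.41). Its confidence bounds correspond to at most 17.98 fragments in a culture. ITGA10 had means of 0.109 ± 0.0818 (SD, n = 3) and 0.131 ± 0.0969 (SD, n = 3) and did not pass (log2 fold change 0.12 ± 0.55 (SE), limma, adjusted p = 0.86).

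A further group of integrins is known from leukocytes. ITGAE and ITGB7 form the receptor by which intraepithelial lymphocytes bind E-cadherin. ITGB7 was at 2.17, 2.302 and 2.64 in the controls and 0.763, 0.659 and 1.23 in the butyrate cultures. All butyrate cultures were below all controls (log2 fold change -1.37 ± 0.25 (SE), limma, adjusted p = 0.0017). The confidence bounds of ITGB7 correspond to only 14.1 to 45.5 fragments in a culture. ITGAE fell from 5.24 ± 0.413 (SD, n = 3) to 2.84 ± 0.1702 (SD, n = 3) (log2 fold change -0.86 ± 0.13 (SE), limma, adjusted p = 0.00057). Inside the ITGAE locus on chromosome 19 from 25002669 to 25064703 lies GSG2, the gene of the mitotic kinase haspin, from 25010756 to 25013743. GSG2 had a mean FPKM of 3.095 in the controls and 0.246 with butyrate, and since both genes can share reads, the size of the ITGAE change is uncertain. In the same cultures the leukocyte markers were as given above, with LCP1 lower after butyrate, CD14 not passing and PTPRC at 0, and their part in the values of ITGAE and ITGB7 was not tested. ITGB2, the common beta chain of leukocytes, was at 0 in the 3 controls and at 0.263, 0.171 and 0.0668 in the butyrate cultures. ITGAM was likewise at 0 in the controls and at 0.0458, 0.193 and 0.0918 with butyrate. ITGAD and ITGA4 were each above 0 only in 1 butyrate culture, at 0.0299 and 0.0716, and ITGAL was at 0 in all 6. These 5 genes were under the limit and were not tested. ITGA9, the tenascin receptor chain, was at 0.0344, 0 and 0 in the controls and 0.313, 0.194 and 0.0699 in the butyrate cultures, and it did not pass (log2 fold change 1.31 ± 0.51 (SE), limma, adjusted p = 0.052). Like ITGA11 it reached the limit only through its butyrate values. It passed in 4 of the alternatives tried and not in the others, among them quantile normalization (0.35, adjusted p = 0.57).

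Of the laminin alpha chains, LAMA3 was the most abundant. It is the alpha chain of the hemidesmosomal laminin and lies on chromosome 24 from 33072788 to 33157167. The controls were at 114, 116 and 98.3 and the butyrate cultures at 142, 136 and 139.9. The groups did not overlap, and LAMA3 rose (log2 fold change 0.35 ± 0.07 (SE), limma, adjusted p = 0.002). LAMA5, the alpha chain of the laminin found in most adult epithelial basement membranes, rose from 18.1 ± 1.14 (SD, n = 3) to 26.2 ± 4.35 (SD, n = 3) (log2 fold change 0.52 ± 0.12 (SE), limma, adjusted p = 0.0051). LAMA4, a chain typical of vessels and mesenchyme, went the other way. Its 3 rows follow one another on chromosome 9 and carry the same gene name. The row from 38644190 to 38744427 fell from 24.4 ± 0.215 (SD, n = 3) to 17.8 ± 1.04 (SD, n = 3) (log2 fold change -0.45 ± 0.07 (SE), limma, adjusted p = 0.00061). The row starting at 38765147 had means of 19.2 and 15.1 (log2 fold change -0.36 ± 0.13 (SE), limma, adjusted p = 0.039), and the one starting at 38783446 had means of 17.7 and 14.1 (log2 fold change -0.32 ± 0.09 (SE), limma, adjusted p = 0.015). Both of these lost their calls in TPM and without control replicate 2 or butyrate replicate 2, the former also after quantile normalization (-0.33), without the trend and without control replicate 1 or 3, the latter also without butyrate replicate 3. LAMA1, a chain of the early embryo, stayed below 0.1 in every culture, and LAMA2, the chain of muscle laminin, was at 0 in all 6.

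Among the beta chains, LAMB3 had the highest FPKM. It lies on chromosome 16 from 75562860 to 75610921. The controls were at 636, 659 and 637 and the butyrate cultures at 876, 845 and 871, a spread that was small against the difference (log2 fold change 0.42 ± 0.03 (SE), limma, Bonferroni-adjusted p = 0.016). Its rank among all rows tested was 187 in the controls and 90 with butyrate. LAMB1, the beta chain paired with LAMC1 in many tissues, fell from 78.1 ± 4.4 (SD, n = 3) to 65.5 ± 7.23 (SD, n = 3) (log2 fold change -0.26 ± 0.08 (SE), limma, adjusted p = 0.029). That call was lost in TPM (-0.13), after quantile normalization (-0.15), and without control replicate 1 or 2 or butyrate replicate 2 or 3, at log2 fold changes from -0.27 to -0.17. LAMB2, a beta chain of muscle, nerve and kidney, had means of 28.4 ± 0.1799 (SD, n = 3) and 26.8 ± 2.56 (SD, n = 3) and did not pass (log2 fold change -0.09 ± 0.08 (SE), limma, adjusted p = 0.38).

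LAMC1, the gamma chain of most laminins, lies on chromosome 16 from 65545496 to 65665386. It rose from 78.7 ± 3.17 (SD, n = 3) to 116 ± 10.97 (SD, n = 3), without overlap between the groups (log2 fold change 0.55 ± 0.07 (SE), limma, adjusted p = 0.0002). LAMC3, a minor chain, was at 0 in the 3 controls and at 0.141, 0.191 and 0.113 in the butyrate cultures, on at most 8 fragments by its confidence bounds, and was under the limit for testing.

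**Figure D3:**
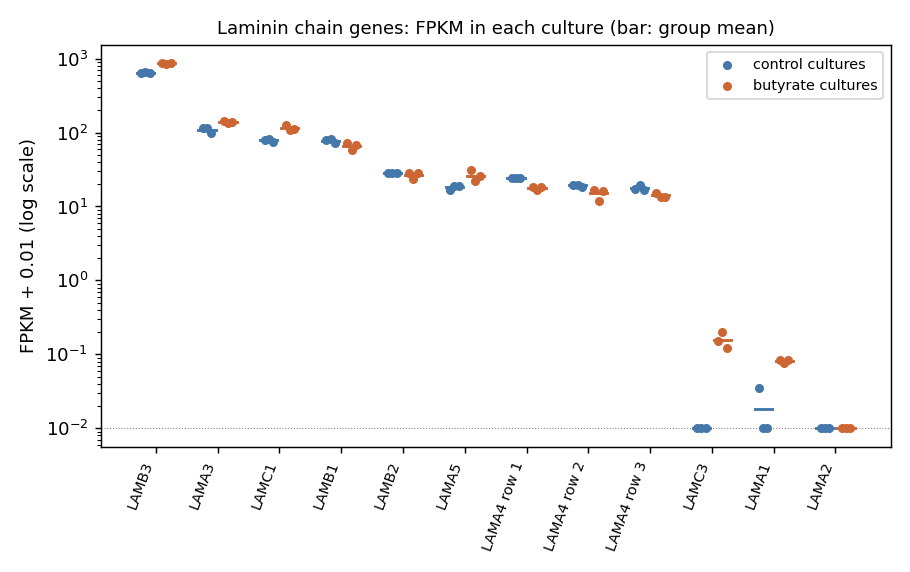
FPKM + 0.01 on a log scale of 12 laminin rows in each control and butyrate culture, with a bar at each group mean. LAMB3, LAMA3, LAMC1 and LAMA5 show butyrate points above all control points, LAMB1 and the 3 LAMA4 rows show them below, and LAMC3 was at 0 in the controls. The FPKM of 65.0% of all rows tested did not overlap either.

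The ratio of LAMB3 to LAMA3 was 5.91 ± 0.503 (SD, n = 3) in the controls and 6.21 ± 0.0283 (SD, n = 3) with butyrate, with overlapping groups (exact permutation test, two-sided, p = 0.4).

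The makeup of each class was described by the share of its summed FPKM that each chain took in a culture, a measure that is the same in FPKM and TPM. Shares of 20 chains were compared, those that reached 1% in at least 1 culture, and 18 of them did not overlap between the groups. The shares of a class sum to 100%, so they do not move independently, and the FPKM of 65.0% of all rows tested did not overlap either. For each of these 18 the exact permutation test gave p = 0.1 and an adjusted p of 0.111 over the 20 shares, so none could pass 0.05 in this design. In the integrin alpha class ITGAV went from 21.1% to 33.4% and became the largest share. ITGA6 went from 31.5% to 25.97%, ITGA3 from 19.6% to 13.3%, and ITGA7 from 1.17% to 4.76%. In the integrin beta class ITGB1 held 78.3% and 74.8%, ITGB5 9.898% and 13.04%. Among laminin beta chains LAMB3 held 85.8% in the controls and 90.4% with butyrate. In the laminin alpha class LAMA3 went from 57.9% to 65.6%, and LAMA4 from 32.5% to 22.1% with its 3 rows summed. With only its highest row counted, LAMA4 was at 16.1% and 9.69%, and LAMA3 at 72% and 76%. The SD of these shares within a group was at most 2.19 percentage points.

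**Figure D4:**
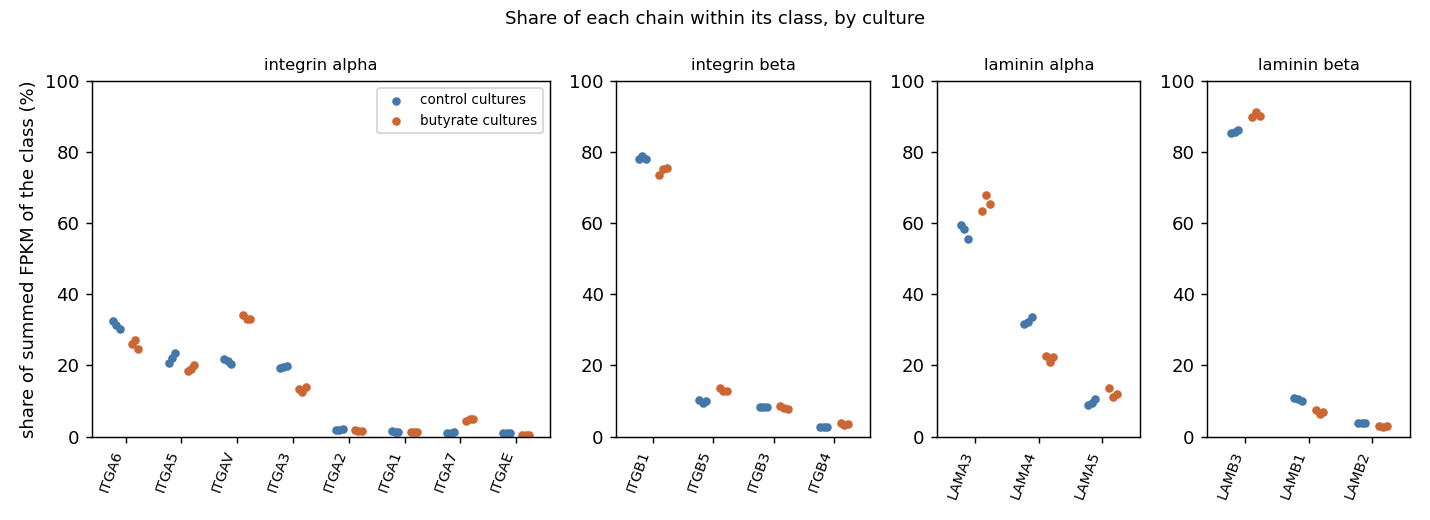
Share of each chain in the summed FPKM of its class, in percent, for each of the 3 control and 3 butyrate cultures, in 4 of the classes with 1 panel each. ITGAV and LAMB3 are higher in all butyrate cultures than in all controls, and ITGA6, ITGA3 and LAMA4 are lower.

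Summed over a class, the integrin alpha genes reached 499 ± 12.4 (SD, n = 3) in the controls and 635 ± 20.02 (SD, n = 3) with butyrate, and the laminin beta genes 750.3 ± 15.8 (SD, n = 3) and 956 ± 26.1 (SD, n = 3), both without overlap. The laminin alpha genes reached 189 ± 11.2 (SD, n = 3) and 212 ± 11.7 (SD, n = 3), also without overlap, though the nearest cultures were at 198 and 199.9. The sums of the integrin beta genes overlapped between the groups. The ratio of ITGB1 to the summed alpha chains was 1.39 ± 0.0138 (SD, n = 3) in the controls and 0.992 ± 0.0781 (SD, n = 3) with butyrate (exact permutation test, two-sided, p = 0.1). The 38 rows together took 0.386% to 0.40984% of the summed FPKM of a control culture and 0.465% to 0.499% of that of a butyrate culture.

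The genes that work with integrins and laminins were read from 5 lists of 90 genes in all, of which 76 were tested. Of these, 40 rose and 16 fell, which is 52.6% and 21.1% against 32.5% and 25.9% of all rows tested. Of the 19 basement membrane partners 14 were tested, and 13 rose and 1 fell (92.9% and 7.14%, against 32.5% and 25.9% of all rows), with a median log2 fold change of 1.15 against 0.10 for all rows. COL4A6, a collagen IV chain and 1 of the 13, reached the limit for testing only in its butyrate values. After quantile normalization 11 genes of the list rose and 1 fell, against 4284 and 4679 of all 15813 rows, and COL4A6 no longer passed. The median of the list was then 0.76, against -0.05 for all rows. NID1, which links laminin to collagen IV, had the largest rise, from 0.851 ± 0.153 (SD, n = 3) to 7.06 ± 0.0297 (SD, n = 3) (log2 fold change 2.92 ± 0.17 (SE), limma, Bonferroni-adjusted p = 0.0013), and was a DEG. COL18A1, a collagen of basement membranes and the other DEG of the list, rose from 35.2 ± 3.08 (SD, n = 3) to 146 ± 10.8 (SD, n = 3) (log2 fold change 2.05 ± 0.08 (SE), limma, Bonferroni-adjusted p = 4.4e-05). The gene that fell was NTN4, a laminin-related netrin (log2 fold change -0.35 ± 0.06 (SE), limma, adjusted p = 0.001). The 7 of 9 fibroblast markers that were tested rose in the same cultures, 5 of them after quantile normalization.

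The list of laminin receptors outside the integrin family, with a complex that accompanies them, held 10 genes. The genes of that complex were SGCA, SGCB, SGCD and SGCE, subunits of the sarcoglycan complex beside the receptor dystroglycan. Of the 10 genes, 7 rose, including SGCA, SGCB and SGCE, and 1 fell (70% and 10%, all rows 32.5% and 25.9%). Outside the sarcoglycans, DAG1, the gene of dystroglycan, BCAM, SDC2 and SDC4 rose and RPSA fell. SDC1 did not pass, although it did after quantile normalization at 0.19. The median of the list was 0.57 against 0.10. SGCA and SGCE were DEGs. SGCA rose from 0.175 ± 0.0613 (SD, n = 3) to 10.6 ± 1.102 (SD, n = 3) (log2 fold change 5.3 ± 0.23 (SE), limma, Bonferroni-adjusted p = 0.00012), and SGCE from 3.1 ± 0.368 (SD, n = 3) to 25.4 ± 1.08 (SD, n = 3) (log2 fold change 3.0 ± 0.11 (SE), limma, Bonferroni-adjusted p = 3e-05). The remaining DEG was BCAM, a receptor of laminins that contain LAMA5, from 17.8 ± 0.8798 (SD, n = 3) to 135 ± 9.38 (SD, n = 3) (log2 fold change 2.92 ± 0.07 (SE), limma, Bonferroni-adjusted p = 7.8e-07). RPSA, a ribosomal protein also described as a laminin receptor, was the one that fell (log2 fold change -0.25 ± 0.03 (SE), limma, adjusted p = 0.00024).

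Of the 25 integrin ligands, 19 were tested, and 10 rose and 3 fell (52.6% and 15.8%, all rows 32.5% and 25.9%), with a median of 0.31 against 0.10. FN1, which encodes fibronectin, rose from 1217 ± 61.1 (SD, n = 3) to 2374 ± 206 (SD, n = 3) (log2 fold change 0.96 ± 0.07 (SE), limma, adjusted p = 4e-06). MADCAM1, the ligand of the pair of ITGA4 and ITGB7, and IBSP, bone sialoprotein, had the largest rises of the list on the fitted scale, but both reached the limit for testing only in their butyrate values, so that a rise was the direction open to them. MADCAM1 was at 0, 0.155 and 0 in the controls and 0.914, 1.19 and 0.924 in the butyrate cultures (log2 fold change 3.01 ± 0.45 (SE), limma, adjusted p = 0.00046). IBSP was listed at 0 in the 3 controls and was at 0.495, 1.34 and 0.307 in the butyrate cultures (limma, adjusted p = 0.0016). FBLN5, an elastic fibre protein, and THBS1, a thrombospondin, fell by 0.63 and 0.59 on the log2 scale. TNC, tenascin C, had a failed estimate and was left out of the tests.

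Of the 30 adhesion adaptors, which couple integrin tails to actin, 29 were tested, and 9 rose and 9 fell, 31% each way and so near the 32.5% and 25.9% of all rows. Their median was -0.11 against 0.10 for all rows, and 0.011 in TPM against 0.22 for all rows. After quantile normalization both medians were -0.05. TGFB1I1, a relative of paxillin, fell most, from 152 ± 7.81 (SD, n = 3) to 22.1 ± 5.08 (SD, n = 3) (log2 fold change -2.8 ± 0.15 (SE), limma, Bonferroni-adjusted p = 0.00075), and was the only DEG of this list. ACTN4, an alpha-actinin, followed with means of 241 and 139 (log2 fold change -0.79 ± 0.09 (SE), limma, adjusted p = 9.5e-05). PARVB and FERMT3 had the largest rises of the list. PARVB is a parvin (log2 fold change 2.46 ± 0.29 (SE), limma, adjusted p = 0.00012) and FERMT3 the kindlin of blood cells (log2 fold change 2.46 ± 0.31 (SE), limma, adjusted p = 0.00017), and their control means were only 0.193 and 0.251. Of the 4 smooth muscle markers, CNN1, ACTA2 and MYH11 fell in the same cultures, at log2 fold changes of -1.9, -1.46 and -2.02, and DES rose (log2 fold change 2.07 ± 0.51 (SE), limma, adjusted p = 0.0074). Of the 6 hemidesmosome partners 4 were matched by name, and 1 rose and 2 fell, too few to set against the 32.5% and 25.9% of all rows. KRT14, a basal keratin, rose from 72.5 ± 2.19 (SD, n = 3) to 500.0 ± 48.1 (SD, n = 3) (log2 fold change 2.78 ± 0.07 (SE), limma, Bonferroni-adjusted p = 9.9e-07). COL17A1, the transmembrane collagen of the hemidesmosome, and KRT5, the keratin partner of KRT14, fell by 0.23 and 0.17 on the log2 scale. Neither fall passed in TPM, at -0.11 and -0.05, or after quantile normalization, at -0.17 and 0.06, where KRT5 also changed sign.

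**Figure D5:**
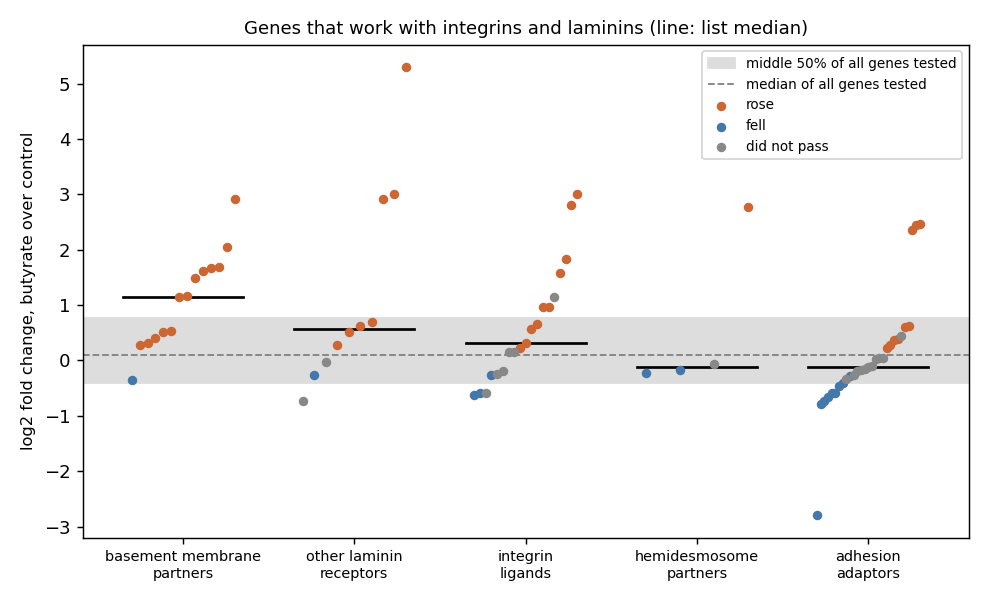
Log2 fold change on log2(FPKM + 0.1), butyrate over control, of each tested gene in the 5 lists of partner genes, with a line at the median of each list and a grey band for the middle 50% of all genes. The basement membrane partners have the highest median at 1.15 (0.76 after quantile normalization). The adhesion adaptors have a median of -0.11 (0.011 in TPM, where that of all rows was 0.22) with TGFB1I1 lowest at -2.8.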

How the data were processed

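RNA-seq libraries of 6 REPC cultures, 3 with butyrate and 3 controls by their labels, were compared. Reads had been trimmed by the authors with Trim Galore 0.4.1 and aligned with STAR, and Cufflinks gave the deposited FPKM values and their confidence bounds per gene. The submitters' notes name UMD3.1, and the strand setting is not given in the sources used here. Coordinates are those of the tables. Chromosome numbers were assigned by matching the gene names of each sequence to a RefSeq gene table.

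The tables were joined by locus, and 2 rows with a failed estimate were left out. With limma 3.58.1 (R 4.3.3), a trended fit was made to log2(FPKM + 0.1) of the 15813 rows whose mean FPKM reached 0.1, after testing on simulated data. No counts were used. Read as 2 Poisson SDs, the confidence bounds correspond to 5756609 to 6186809 fragments per culture, an approximation that covers counting error only. Members and lists were chosen with earlier results of these data known. Values per culture are given for members that passed with a log2 fold change beyond 1 and for the most abundant member of each class. From each list the text names the 2 largest rises and falls among those that passed, and FN1. Other values per culture, the ratios, class sums, BCAM, DAG1, SDC1, SDC2, SDC4, PELO, GSG2 and LOC107132253 were chosen after their values were seen. 1 member entered the fits and counts but is not reported here. Promoter and protein sequences were not analysed here.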

Additional observations from a re-analysis of the deposited data

How the results depend on the processing

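Of 442 fold changes recomputed under the alternatives, 357 stayed on their side of the threshold with their sign, 62 lost their call, 8 gained one and 15 changed sign. ITGA7, ITGAV, ITGAE, ITGB5, ITGB6, ITGB7, LAMA3, LAMB3, LAMC1 and the LAMA4 row from 38644190 kept their calls in every alternative that gave a value, which for ITGB6 excludes the limit of a mean of 1. The rows that fell went from 10 to 3 without a filter, 3 in TPM, 6 after quantile normalization, 5 without the trend and 0 by Bonferroni (limma, against 10 at an unadjusted p under 0.05). They were 5 without butyrate replicate 2, 6 without control replicate 1 or 2, and at most 9 with any replicate left out. Over all rows tested, the falls were 4091 of 15813 in the main fit and 3393 of 32181 without a filter. They were 3387 in TPM, 4679 after quantile normalization, 3832 without the trend, 1102 by Bonferroni and 3713 to 3881 with a replicate left out. The integrin and laminin rows that rose went from 11 to 3 by Bonferroni, against 5144 and 916 of all rows. Upregulated DEGs among them went from 1 to 0 without a filter and to 2 with a log2 fold change beyond 1. Over all rows these were 389, 47 and 715. Sign changes were ITGB1 at 0.16, ITGA10 at -0.85 and ITGA8 at -1.06 after quantile normalization, where ITGB1 and ITGA8 passed, and ITGA2 and LAMB2 at 0.12 and 0.035 in TPM. With a replicate left out, ITGA10 ranged from -0.21 to 0.53, ITGA8 from -0.097 to 0.15 and ITGA2 from -0.11 to 0.061. The cause was not tested.

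The labels do not say whether cultures of the same replicate number were paired. Same-numbered cultures showed no shared deviation, at correlations of 0.0228, -0.0043 and 0.0018, which cannot settle how the cultures were set up. With the replicate number as a block, 10 rows rose and 9 fell, and 39 and 14 partner genes did. Of all rows tested, 4956 rose and 4015 fell with that block. Of the partner genes named, COL17A1 and KRT5 lost their calls in TPM and after quantile normalization. COL4A6 lost its call after quantile normalization only (log2 fold change 0.72, limma, adjusted p = 0.17). The other partner genes named that had passed kept their calls in both. Keeping the rows with failed estimates was chosen after seeing the data. Shares kept their direction in all 180 recomputed values. Few fragments limit the members below an FPKM of 0.5, and also ITGB6 and ITGB7. By the confidence bounds, ITGB6 had 7.33 to 57.5 fragments in a culture and ITGB7 14.1 to 45.5.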
